A study of Rattus norvegicus with 42 samples.

Results

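Damaging light was given to rats with and without an injection of vehicle into the vitreous of the eye, and the comparison described here asks which retinal transcripts differ between those 2 conditions. It sets the 5 libraries labelled vehicle plus light damage (replicates 1, 2, 3, 4 and 6) against the 7 libraries labelled light damage (replicates 1 to 7), across all genes, and so uses 12 of the 31 libraries with counts. Light was set at 15000 lux and lasted 24 h in both groups, and all animals were adult rats. Strain, sex and age, the make-up of the vehicle, and the order and interval of injection and light are details that the sources used here do not give. Light damage animals received no injection, so the difference holds the vehicle and the puncture of the eye together, and these cannot be told apart. The other groups, drawn on only for context, are untreated control (5 libraries), vehicle without light (5), 1 mM nanoceria (cerium oxide nanoparticles) in the vitreous without light (4) and the same nanoceria with light (5). Measured was polyA RNA of whole retina.

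Bright light is used in rodents to kill photoreceptors. Photoreceptors take up the light, rods die, Müller glia (the radial glia that span the retina) become reactive, and microglia and monocytes are drawn in by chemokines. A needle passed into the vitreous is itself known to raise growth factors such as Fgf2 in the retina and, given before light, to spare some photoreceptors, so injected and uninjected eyes are not interchangeable as controls.

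Total counts lay between 87979270 and 182162368 in vehicle plus light and between 106556304 and 149429413 in 6 of the light damage libraries. Light damage 1 held 25158407 counts and stood at one end of the first and the second principal components of the 12 libraries, which held 22.2% and 15% of the variance, and vehicle plus light 4 stood at the other end of the first. Light damage 4 and 7 were closer to each other than any other pair within the 2 groups (median chi-square per gene 1.71, where counting noise alone gives 0.455 and the next closest pair gave 6.36), and among the context groups vehicle 4 and 7 were closer still (1.12). Both pairs differed by more than counting noise and were kept as separate libraries, but whether each comes from separate animals or from 1 RNA prepared again was not tested. With each pair summed to 1 library, 15 genes passed in the main comparison, 14 of them among the 22 that passed with all libraries kept apart. Y-linked transcripts were high in 4 of 7 light damage and in 2 of 5 vehicle plus light libraries, so males and females were not balanced. All 31 defining markers of retinal and neighbouring cell types were detected in each of the 12 libraries, among them Gnat1 (rod transducin, at least 492.7 library-scaled counts, CPM), Glul (glutamine synthetase of Müller glia, at least 1172 CPM) and Trpm1 (a channel of bipolar cells, at least 173 CPM). Lens crystallin Cryaa was also present, at 1623 to 4209 CPM in vehicle plus light and 216 to 5226 CPM in light damage.

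Few genes differed. By the quasi-likelihood test of edgeR, 22 of 18094 genes tested (0.122%) passed an adjusted p of 0.05, 11 higher (0.0608%) and 11 lower (0.0608%) in vehicle plus light (called genes). The transcription factor Sox9 was 1.94-fold higher, the kinetochore protein Zwint 2.12-fold lower, the peptide apelin (Apln) 1.89-fold lower, the lysosomal sulfatase Galns 2.05-fold lower, and 3 class I histocompatibility genes 2.92-fold to 4.13-fold lower. At an unadjusted p under 0.05 there were 1482 genes (8.19%), where 5% of the genes tested is 905, 798 of them higher (4.41%) and 684 lower (3.78%). The median log2 fold change over all genes was -0.0011, and the median standard error (SE) was 0.13. Of the 22 genes, 12 differed at least 2-fold and 5 less than 1.5-fold. The 2 groups did not overlap in 21 of the 22, against 0.967% of all genes tested, with RT1-CE16_2 as the exception. The 22 were chosen by their difference between these same libraries, so the lack of overlap is not separate evidence. In fits that left out each of the 12 libraries in turn, 12 of the 22 passed every time. Of these 12, 9 also passed in all other fits tried, those without a control or vehicle library included, and the 3 that did not were RT1-CE16_2 (adjusted p up to 0.0545), Apln (up to 0.0716) and Grin3b (up to 0.0636).

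**Figure D1:**
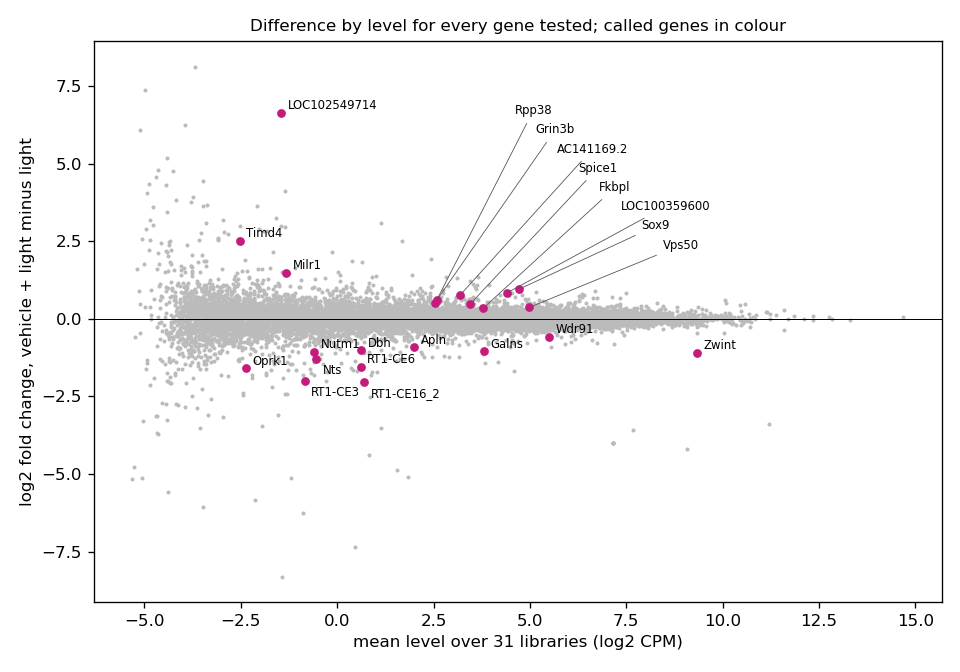
Log2 fold change of vehicle plus light against light damage (vertical axis) by mean level over 31 libraries in log2 CPM (horizontal axis) for the 18094 genes tested, 1 point a gene. The 22 genes that passed an adjusted p of 0.05 are coloured and named, and lie between -2.04 and 6.65; many genes with larger fold changes at low level did not pass.

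Sox9 is a transcription factor that marks Müller glia and astrocytes in the adult retina and is used by reactive glia. Its level was 52.02, 53.22, 35.66, 53.99 and 37.64 CPM in vehicle plus light 1, 2, 3, 4 and 6. In light damage it ran from 21.5 to 26.3 CPM with a median of 23.6. All injected retinas exposed to light therefore lay above all uninjected ones, with a log2 fold change of 0.95 ± 0.17 (± SE here and below; edgeR adjusted p = 0.0093). Vehicle without light (19.2 to 23.9 CPM) and control (16.5 to 26.1 CPM) overlapped with light damage. Within vehicle plus light, Sox9 was lowest in replicates 3 and 6, the 2 with high Y-linked transcripts. Its call held with a term for Y-linked transcripts in the fit, and the part of sex in this spread was not tested. Sox9 was the only member of the 34 gene lists examined that passed. In whole retina, more cells of a type and more RNA per cell cannot be told apart. Among 18 Müller glia genes of homeostasis none passed and none had an unadjusted p under 0.05. Their median was 0.14, and Slc1a3, the glial glutamate transporter, gave 0.20 ± 0.15.

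Transcripts of neurons and of neuropeptide and transmitter signalling were found on both sides. Zwint encodes a kinetochore protein that in neurons also binds the synaptic protein SNAP25, and it was the most abundant of the 22. It stood at 405, 418, 327, 307 and 416 CPM in vehicle plus light and at 706 to 958 CPM (median 737) in light damage, a log2 fold change of -1.09 ± 0.19 (edgeR adjusted p = 0.0093). The lowest light damage library (706 CPM) thus lay well above the highest injected one (418 CPM). Control (488 to 1107 CPM) and vehicle (657 to 914 CPM) lay near light damage.

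Grin3b, a subunit of NMDA glutamate receptors, was higher in vehicle plus light, at 9.05, 8.01, 9.14, 7.36 and 8.11 CPM against 4.94 to 6.06 CPM (median 5.48) in light damage. The log2 fold change was 0.62 ± 0.11 (edgeR adjusted p = 0.0093). Nts, the peptide neurotensin, was lower, at 0.397, 0.430, 0.462, 0.352 and 0.508 CPM against 0.875 to 1.81 CPM (median 0.961), with a log2 fold change of -1.31 ± 0.24 (edgeR adjusted p = 0.0093). The highest Nts value was that of light damage 1, and leaving this library out kept the call. Dbh, which makes noradrenaline from dopamine, and Oprk1, the kappa opioid receptor, passed less firmly. Dbh changed by -1.02 ± 0.21 (edgeR adjusted p = 0.0334) and passed in 5 of 12 fits with 1 library left out. Oprk1, at most 0.411 CPM in the 12 libraries, changed by -1.60 ± 0.34 (edgeR adjusted p = 0.0484) and passed in 0 of 12.

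Apln encodes apelin, a peptide of growing blood vessels. Its level was 2.76, 3.81, 4.03, 2.57 and 2.41 CPM in vehicle plus light and 4.76 to 7.54 CPM (median 5.87) in light damage. The log2 fold change was -0.92 ± 0.16 (edgeR adjusted p = 0.0093). Apln passed in each fit that left out 1 library, but not when only the 2 groups were fitted or when light damage 1 was left out and light damage 4 and 7 were summed, with adjusted p up to 0.0716. Of 17 genes of vessels tested none passed. Kcnj8, a potassium channel of pericytes, came nearest, with 3.48, 3.33, 3.38, 3.24 and 2.60 CPM against 4.50 to 6.41 CPM (-0.72 ± 0.17, edgeR adjusted p = 0.0793). Its groups did not overlap either.

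Galns, Wdr91 and Vps50 act in lysosomes and endosomes. Galns removes sulfate from keratan sulfate in the lysosome. It measured 15.47, 14.98, 13.49, 11.78 and 9.04 CPM in vehicle plus light against 24.1 to 28.7 CPM (median 26.2) in light damage (-1.03 ± 0.18, edgeR adjusted p = 0.0093). The light damage libraries lay above every other library of the series for this gene, since the highest of the remaining 24 was 23.8 CPM. Wdr91, which controls the maturation of endosomes, was lower, at 33.7 to 42.6 CPM (median 36.7) against 47.4 to 67.4 CPM (median 56.1; -0.58 ± 0.11, edgeR adjusted p = 0.0221). Vps50, a subunit of a complex that recycles endosomes, was higher, at 37.82, 36.78, 39.97, 38.33 and 41.75 CPM against 26.8 to 32.4 CPM (median 30.2; 0.37 ± 0.06, edgeR adjusted p = 0.0093). These 3 genes did not move in 1 direction. Wdr91 passed in 7 of 12 fits with 1 library left out, Galns and Vps50 in all 12.

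Class I histocompatibility genes of the rat (RT1) present peptides to T cells. RT1-CE6 stood at 0.678, 1.05, 1.66, 1.27 and 1.56 CPM in vehicle plus light and at 2.55 to 4.59 CPM (median 3.85) in light damage, a log2 fold change of -1.55 ± 0.24 (edgeR adjusted p = 0.00322). RT1-CE3 stood at 0.126, 0.472, 0.332, 0.666 and 0.663 CPM against 1.27 to 2.17 CPM (-1.998 ± 0.39, edgeR adjusted p = 0.0206), and RT1-CE16_2 at 0.587 to 1.74 CPM against 1.66 to 6.83 CPM (-2.04 ± 0.31, edgeR adjusted p = 0.00322). RT1-CE3 passed in 9 of 12 fits with 1 library left out (edgeR adjusted p up to 0.0878). It did not pass when only the 2 groups were fitted or when near-identical pairs were summed. The pattern is one of light damage being high: for RT1-CE6 and RT1-CE3 its 7 libraries lay above all 24 others of the series. They lay apart from all others, either above or below, for 6 of the 18094 genes tested (0.0332%). The light damage libraries of RT1-CE16_2 also lay above all others, except for light damage 1, at 1.66 CPM. Other class I genes did not pass and lay on both sides. RT1-CE10 gave 26.3, 54.9, 55.6, 67.3 and 60.1 CPM against 18.9 to 34.3 CPM, 0.88 ± 0.22 in the opposite direction (edgeR adjusted p = 0.128), and RT1-A2, lower like the 3 genes that passed, gave 74.9 to 133 CPM against 126 to 242 CPM (-0.77 ± 0.21, edgeR adjusted p = 0.202). Of 20 genes of antigen processing on the list, which holds these last 2 and none of the RT1 genes that passed, 0 passed, and the median was 0.10. RT1 genes are near-identical copies, RT1-CE6 and RT1-CE3 are neighbours in the RefSeq gene order, and the sources used here do not say how reads that fit several copies were counted, so the split among them is uncertain. Whether the animals of the groups carried the same RT1 alleles was not tested.

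The remaining named genes of moderate level act in cell division and RNA processing. Spice1, a centriole and spindle protein, measured 14.6, 11.9, 11.8, 11.7 and 11.4 CPM in vehicle plus light against 8.37 to 9.62 CPM (median 8.92), a log2 fold change of 0.46 ± 0.07 (edgeR adjusted p = 0.00322). Rpp38, a subunit of ribonuclease P, measured 7.19 to 9.01 CPM against 5.19 to 5.85 CPM (0.52 ± 0.10, edgeR adjusted p = 0.018), and Fkbpl, an immunophilin-like protein, 14.2 to 16.4 CPM against 10.4 to 13.6 CPM (0.35 ± 0.07, edgeR adjusted p = 0.048). The groups of all 3 were separate, though by little in Fkbpl, which passed in 2 of 12 fits with 1 library left out. Rpp38 passed in 10 of these 12 fits and Spice1 in all 12. Of 21 cell cycle genes tested none passed.

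The rule for naming genes covered 10 of the 22, and the other 12 are named after their values were seen. Among these, LOC102549714, a locus without a known role, had the largest fold change: 5.19, 8.41, 4.00, 1.89 and 3.17 CPM in vehicle plus light and 0.00652 to 0.147 CPM in light damage (6.65 ± 1.04, edgeR adjusted p = 0.00322). Its level was uneven without light too, from 0 to 2.31 CPM in vehicle and 0.0545 to 3.34 CPM in nanoceria, and stayed at or under 0.0719 CPM in control. LOC100359600 was higher, at 18.6 to 29.6 CPM against 12.8 to 15.7 CPM (0.84 ± 0.15, edgeR adjusted p = 0.0093), as was AC141169.2, at 10.1 to 13.1 CPM against 4.65 to 7.98 CPM (0.77 ± 0.14, edgeR adjusted p = 0.0125). The last 3 genes, Milr1, Timd4 and Nutm1, were scarce, with at most 1.55 CPM in any of the 12 libraries. Milr1, an inhibitory receptor of mast cells and other myeloid cells, changed by 1.49 ± 0.30 (edgeR adjusted p = 0.033), a value that rested in part on 1.55 CPM in vehicle plus light 2 and was 1.06 without it. Timd4, a receptor of macrophages for dying cells, changed by 2.51 ± 0.51 (edgeR adjusted p = 0.0334), and Nutm1, a gene mostly of the testis, by -1.06 ± 0.20 (edgeR adjusted p = 0.0189). Timd4 passed in 2 of 12 fits with 1 library left out, Milr1 in 6, Nutm1 in 8 and AC141169.2 in 11.

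**Figure D2:**
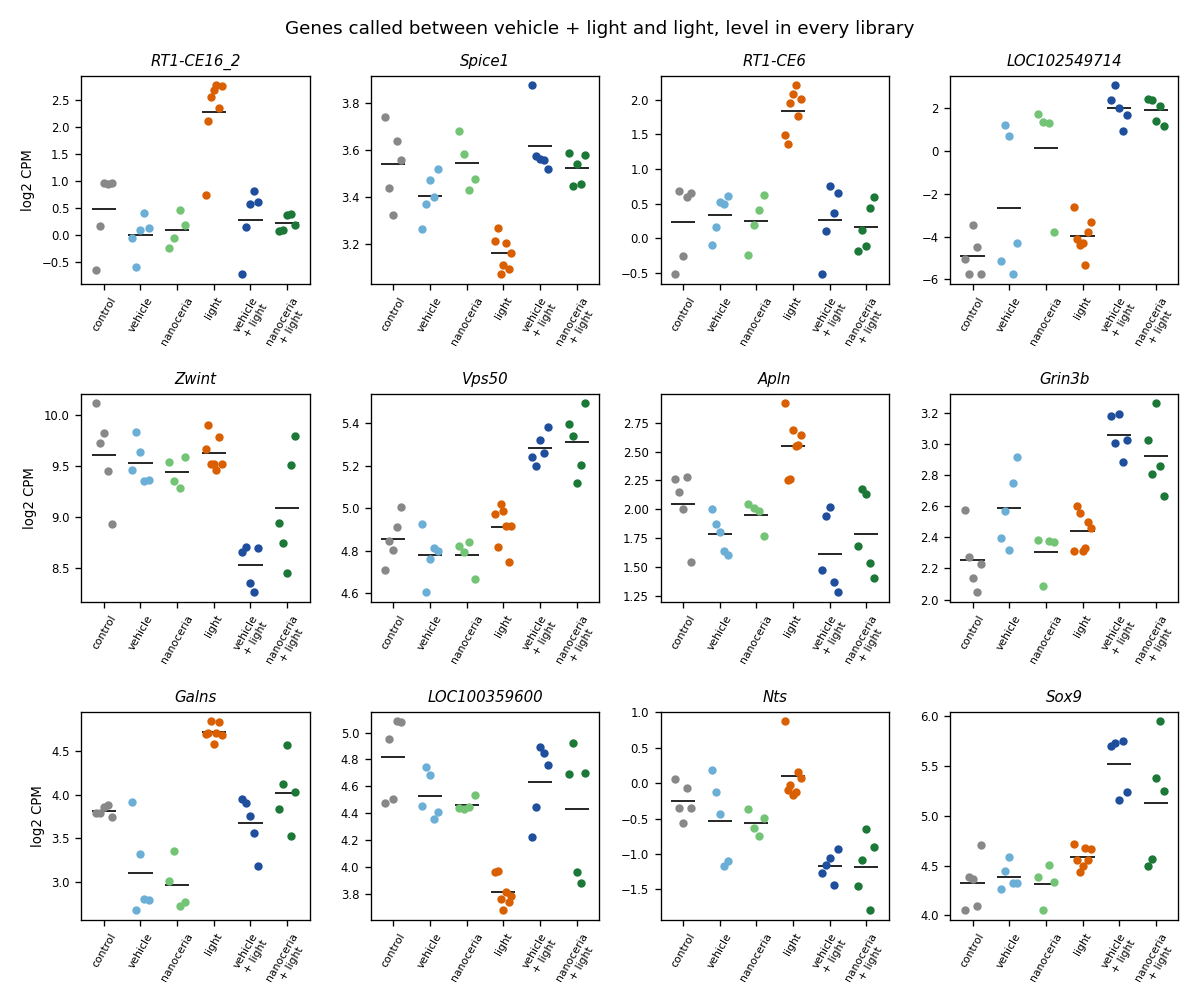
Level in log2 CPM (vertical axes, own scale in each panel) of the 12 genes that passed in every fit with 1 of the 12 libraries left out, in each of the 31 libraries. Points are libraries, bars are group means, and groups run from control to nanoceria plus light. Light damage and vehicle plus light do not overlap in any panel but that of RT1-CE16_2. The median of nanoceria plus light (not drawn) lies nearer to that of vehicle plus light for these genes. Its libraries reach into the range of light damage for Sox9 and Zwint. The genes were chosen by the difference between light damage and vehicle plus light, so this nearness is not separate evidence.

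Retinas that received nanoceria and light share the injection and the light with vehicle plus light but none of its libraries. For 20 of the 22 genes the median of nanoceria plus light lay nearer to that of vehicle plus light than to that of light damage, as it did for 55.5% of all genes tested, with Rpp38 and Fkbpl as the exceptions. The 22 were chosen by the difference between those other 2 groups, whose medians are used here again, so this count is not separate evidence. Sox9 reached 22.5 to 61.8 CPM in nanoceria plus light (median 38), Zwint 351 to 886 CPM (median 494) and Galns 11.5 to 23.8 CPM (median 16.3). These ranges were wider than those of vehicle plus light. No gene was apart from all other libraries in vehicle plus light.

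The injection without light was examined as vehicle against control. There, 4 of 18094 genes passed (0.0221%), 2 higher and 2 lower (0.0111% each), and 1462 had an unadjusted p under 0.05 (8.08%). None of the 22 was among the 4, which at that share of all genes does not show that the sets differ. LOC102549714, Grin3b and Galns had an unadjusted p under 0.05 there, and 13 of the 22 had the same sign. The 4, named after their values were seen, were the transcription factor Etv4 (-1.02 ± 0.14), smooth muscle actin Actg2 (-2.42 ± 0.45), Il17rb and LOC497796. Etv4 fell from 10.3 to 15.7 CPM in control to 5.30 to 6.15 CPM in vehicle (edgeR adjusted p = 0.000994). With light it measured 9.999 to 12.6 CPM with vehicle and 8.27 to 11.5 CPM without, a difference of 0.12 ± 0.13. The count of 4 was unstable, at 24 without vehicle 1, 7 without control 1, 2 without vehicle 7, vehicle plus light 1 or vehicle plus light 6, and 1 without control 2, control 4 or vehicle 2. With a term for Y-linked transcripts the count was 1.

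Whether the effect of vehicle differed between light and no light was tested as an interaction, and 8 genes passed (0.0442%), 4 higher and 4 lower (0.0221% each). Of the 22, 2 were among them and 19 had an unadjusted p under 0.05, against 5.85% of all genes. The effect under light is the main comparison itself, so this is not separate evidence. For Spice1 the interaction was 0.60 ± 0.10 (edgeR adjusted p = 0.0138), and for LOC100359600 1.15 ± 0.22 (edgeR adjusted p = 0.0436). The other named genes that passed had been chosen after their values were seen, apart from Ccl3. Cntnap5b, a cell adhesion protein of neurons, was higher in vehicle (6.63 to 14.5 CPM) than in control (2.20 to 6.31 CPM) and, with light, lower in vehicle plus light (3.68, 2.81, 3.35, 1.75 and 3.69 CPM) than in light damage (5.53 to 9.003 CPM). Its interaction was -2.64 ± 0.39 (edgeR adjusted p = 0.00223), while the difference under light alone, -1.24 ± 0.27, narrowly missed (edgeR adjusted p = 0.0526). The chemokines Ccl3 (-2.35 ± 0.46) and Cxcl11 (-2.48 ± 0.46) and Etv4 (1.14 ± 0.19) also passed, as did AABR07017268.1 and Plscr5. Under light alone Ccl3 gave -1.10 and Cxcl11 -0.69, and neither passed (edgeR adjusted p = 0.149 and 0.519). The rest of each chemokine interaction came from higher estimates in vehicle than in control without light, where neither passed. The count of 8 was 21 without vehicle 1 and 5 without control 5, light damage 6, vehicle 2 or vehicle 4. With a term for Y-linked transcripts the count was 7. The part without light holds the imbalance of Y-linked transcripts between control and vehicle.

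How the 22 genes responded to light with and without injection is given side by side, since each of these contrasts shares libraries with the main one. Light damage against control called 13 of the 22, in a comparison that called 22.5% of all genes, and vehicle plus light against vehicle called 9, where 16.8% of all genes were called. For RT1-CE6 the log2 fold changes were 1.56 and -0.03, for Galns 0.92 and 0.52, and for Apln 0.50 and -0.14, so these transcripts were raised by light in uninjected retinas and did not pass in injected ones. Galns was positive in both, so its response to light was not absent in injected retinas. It also had an unadjusted edgeR p under 0.05 in vehicle against control, without light. For Sox9 they were 0.25 and 1.15, for Zwint -0.03 and -0.995, for Vps50 0.06 and 0.50, and for Rpp38 0.13 and 0.55. Here light alone did not pass and light with vehicle did. Spice1 gave -0.39 and 0.22, of which the first passed. The test of whether these responses to light differ is the interaction given above, which passed for 2 of the 22, Spice1 and LOC100359600. Sox9 and Zwint had an unadjusted edgeR p of 0.00145 and 0.0012 in it and did not pass after adjustment (0.349 and 0.347).

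**Figure D3:**
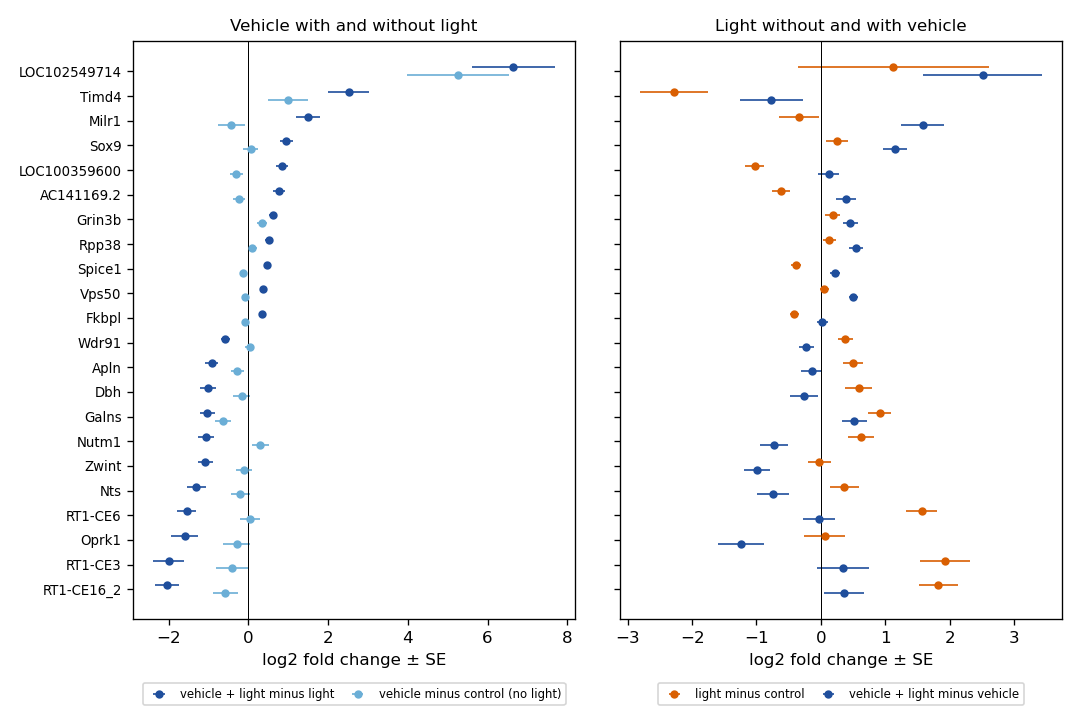
Log2 fold changes with SE bars (horizontal axes) of the 22 genes. Left, vehicle plus light against light damage and vehicle against control; right, the responses to light, as light damage minus control and vehicle plus light minus vehicle. In the left panel most genes lie near 0 for vehicle against control; in the right panel the RT1 genes lie between 1.56 and 1.92 for light damage and between -0.03 and 0.36 for vehicle plus light, while Sox9 and Zwint lie near 0 for light damage.

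Rod transcripts, which light lowers, held no called difference. With 0.122% of all genes called, this is near that share, as it is for each other list that held no call. Of 31 genes of rod phototransduction tested, 0 passed and 0 had an unadjusted p under 0.05, where 8.19% of all genes did, 26 had a positive log2 fold change, and the median was 0.14. Their summed level was 12930, 17062, 25839, 14951 and 28953 CPM in vehicle plus light and 14464 to 26677 CPM (median 15205) in light damage, so both groups held high and low retinas. In vehicle plus light the highest sums were those of replicates 3 and 6, which had high Y-linked transcripts. In light damage, libraries with high Y-linked transcripts held both the lowest and the highest sum. Gnat1 measured 492.7, 537, 1529, 976 and 1538 CPM against 689 to 2363 CPM (median 1038), and the groups overlapped widely. Its log2 fold change was -0.37 ± 0.37, with a 95% interval from -1.13 to 0.38. Pde6a, the alpha subunit of rod phosphodiesterase, gave 0.23 ± 0.15 with an interval from -0.09 to 0.54. Differences within these intervals are compatible with the values of these libraries. The intervals are not limits of detection, and a difference beyond them could also fail to pass. The median change of the list with light was -1.15 without and -1.13 with vehicle. Among 12 genes of photoreceptor transcription and survival none passed, and the median was 0.12.

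Cone transcripts held no call either. Of 14 cone genes tested 0 passed, 2 had an unadjusted p under 0.05, both lower (3.78% of all genes), 11 were negative, and the median was -0.20. Pde6c, the cone phosphodiesterase, measured 15.93, 19.91, 21.98, 20.45 and 26.03 CPM against 23.1 to 36.2 CPM (-0.43 ± 0.13, edgeR adjusted p = 0.25). Opn1mw, the middle-wave opsin, measured 3.30, 12.1, 14.3, 11.1 and 14.7 CPM against 14.4 to 24.0 CPM (-0.76 ± 0.34, edgeR adjusted p = 0.563), and Opn1sw, the short-wave opsin, gave -0.28 ± 0.35. For both opsins vehicle plus light 1 was the lowest library. Inner retinal lists were slightly negative as well, with medians of -0.14 for 17 bipolar, -0.13 for 15 amacrine, -0.11 for 7 horizontal and -0.11 for 17 ganglion cell genes and no gene that passed. The horizontal cell genes Calb1 (-0.44 ± 0.16) and Prox1 (-0.42 ± 0.15) had the smallest p among them (edgeR adjusted p = 0.411 and 0.397).

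**Figure D4:**
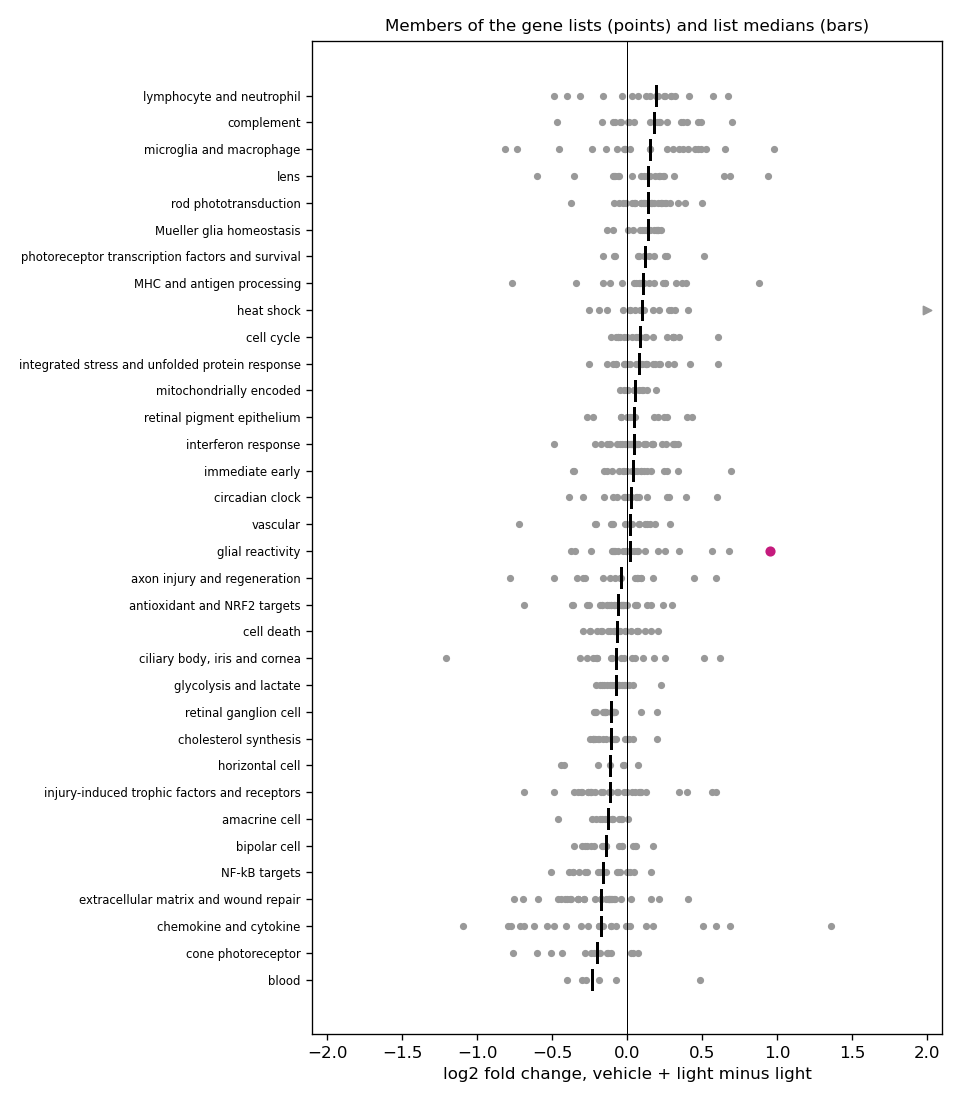
Log2 fold change of vehicle plus light against light damage (horizontal axis) for the tested members of the 34 gene lists (vertical axis), 1 point a gene, with the median of each list as a bar. Sox9, in colour, was the member that passed; the triangle at the right edge marks Hsp90aa1, which lies beyond the axis at 4.79.

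Among genes of glial reactivity and the trophic factors known to follow retinal injury, Sox9 alone passed between the 2 groups. Fgf2, Edn2 and Lif passed as higher with light both in uninjected and in injected retinas. Of 23 genes of glial reactivity the median was 0.02. Gfap, the intermediate filament of reactive glia, measured 353, 402, 383, 325 and 285 CPM in vehicle plus light and 120 to 341 CPM (median 213) in light damage. Most injected retinas were thus above most uninjected ones, but the spread in light damage was wide, and 0.68 ± 0.46 did not pass (edgeR adjusted p = 0.724). Fgf2, a growth factor that protects photoreceptors, measured 8.998, 7.262, 6.075, 6.413 and 6.497 CPM against 4.80 to 6.66 CPM (0.35 ± 0.15, edgeR adjusted p = 0.563). Edn2, an endothelin of stressed photoreceptors, gave 0.56 ± 0.34, Lif, a cytokine of Müller glia that supports photoreceptors, -0.49 ± 0.38, and Cntf, a related survival factor, 0.09 ± 0.21. Of 30 genes of trophic factors and their receptors 0 passed, and the median was -0.11. Stat3, which these cytokines activate, gave -0.03 ± 0.12 with a 95% interval from -0.28 to 0.22.

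**Figure D5:**
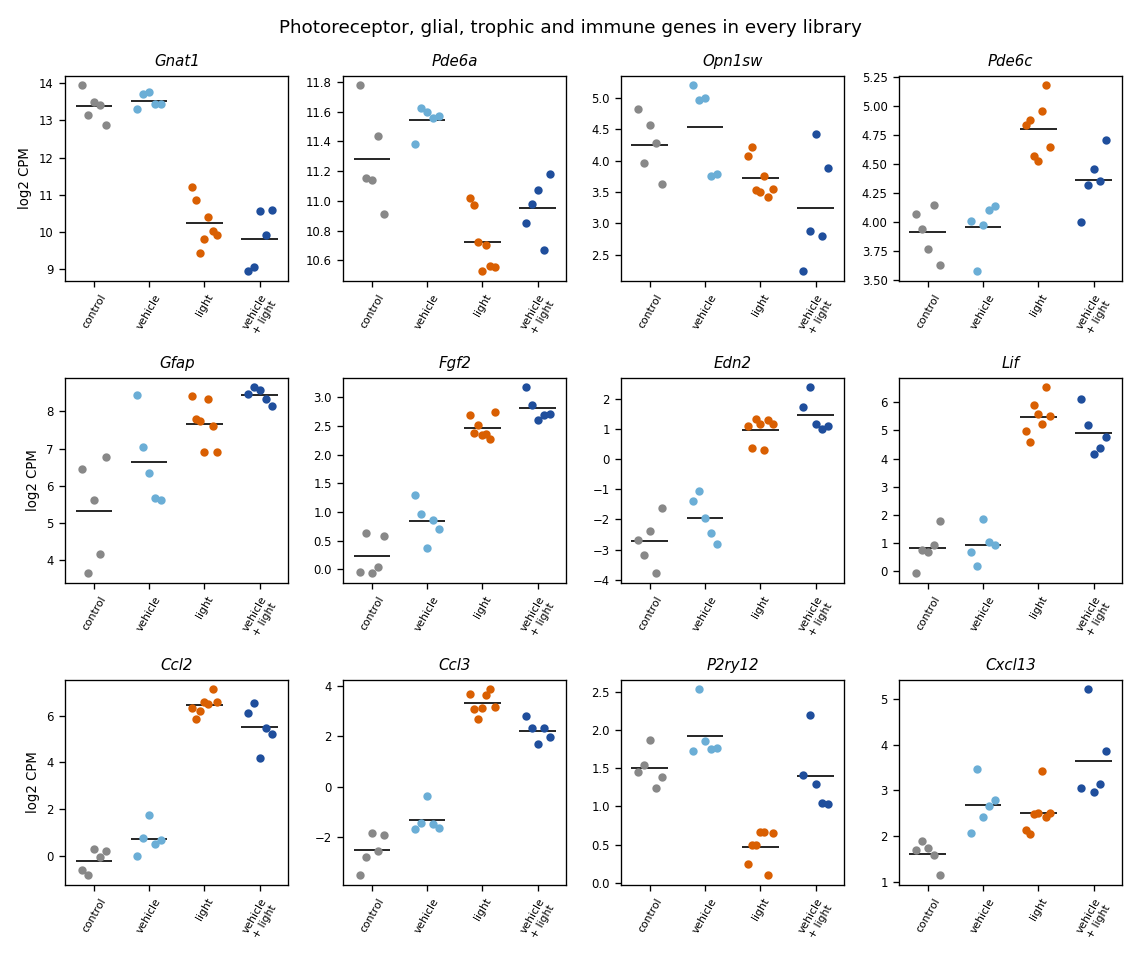
Level in log2 CPM (vertical axes, own scale in each panel) of 12 photoreceptor, glial, trophic and immune genes in the libraries of control, vehicle, light damage and vehicle plus light. Points are libraries and bars are group means. Each of these genes overlaps between light damage and vehicle plus light except P2ry12, and none of the 12 passed.

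None of the 26 chemokine and cytokine genes and none of the 23 microglial and macrophage genes tested passed. The chemokine median was -0.17, with 19 of 26 negative, 3 at an unadjusted p under 0.05 lower and 1 higher (3.78% and 4.41% of all genes). Ccl3, which attracts monocytes, measured 6.96, 4.93, 3.20, 4.98 and 3.88 CPM against 6.44 to 14.5 CPM (median 8.81; -1.10 ± 0.28, edgeR adjusted p = 0.149). Ccl2, another monocyte attractant, measured 69.2, 92.4, 18.3, 44.4 and 37.2 CPM against 57.4 to 140 CPM (-0.80 ± 0.35, edgeR adjusted p = 0.549). The groups overlapped for both. Cxcl13, which attracts B cells, was on the other side, at 8.26, 36.9, 7.80, 8.77 and 14.5 CPM against 4.10 to 10.7 CPM (1.36 ± 0.34, edgeR adjusted p = 0.135).

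P2ry12, the purine receptor by which resting microglia sense injury, measured 2.65, 4.56, 2.43, 2.05 and 2.02 CPM in vehicle plus light and 1.05 to 1.57 CPM (median 1.40) in light damage. The groups did not overlap, and 0.98 ± 0.22 missed the threshold (edgeR adjusted p = 0.0778). Light damage was below control (2.34 to 3.64 CPM) by -1.02, while the range of vehicle plus light overlapped that of control. The microglial gene Tmem119, named after its values were seen, gave 0.53 ± 0.19 and the complement gene C1qb 0.50 ± 0.19, whereas Lyz2, lysozyme of myeloid cells, gave -0.81 ± 0.27 (edgeR adjusted p = 0.396, 0.467 and 0.334). So the list was not of 1 sign: 14 of 23 were positive, with a median of 0.15, while the median of their summed level was 1120 CPM in vehicle plus light and 1327 CPM in light damage. Of 20 complement genes 0 passed, the median was 0.18, and C3 gave 0.20 ± 0.43. Interferon response (36 tested) had a median of 0.04, lymphocyte and neutrophil genes (20 tested) 0.19, and neither list held a call.

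Stress and death genes were near 0 as groups. The medians were -0.06 over 33 antioxidant genes, 0.08 over 26 genes of the unfolded protein and integrated stress responses, 0.04 over 22 immediate early genes and -0.07 over 23 cell death genes, with 0 passing in each. Hmox1, which breaks down heme under oxidative stress, measured 121, 131, 51.7, 85.0 and 46.2 CPM against 71.7 to 243 CPM (-0.69 ± 0.33, edgeR adjusted p = 0.591). Sod2, the mitochondrial superoxide dismutase, gave -0.36 ± 0.14 (edgeR adjusted p = 0.46). Both are genes that light raised in uninjected retinas, by 3.87 and 1.43. Egr1 (0.69 ± 0.38) and Fos (0.25 ± 0.35), which respond to neural activity, varied widely, Egr1 from 163 to 679 CPM within vehicle plus light. Of 16 heat shock genes 5 had an unadjusted p under 0.05, all higher, where 4.41% of all genes did so, and 0 passed. The largest was Hsp90aa1, named after its values were seen: it had 27.4 and 16.5 CPM in vehicle plus light 1 and 2, 2.03 CPM in light damage 2 and no count in vehicle plus light 3, 4 and 6, so its 4.79 ± 2.06 rests on those 2 libraries. The handling of multiply mapping reads is not given, so a lack of counts need not mean a lack of RNA.

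Clock genes were measured because light and handling can shift the retinal clock. Of 18 tested 0 passed, the median was 0.02, and 4 had an unadjusted p under 0.05, where 8.19% of all genes did. Per2 measured 39.98, 33.37, 46.73, 39.53 and 36.28 CPM against 21.6 to 29.4 CPM (0.60 ± 0.16, edgeR adjusted p = 0.195). Per1 (0.39 ± 0.15) and Cry1 (0.26 ± 0.08), both named after their values were seen, were higher too, and Cry2 was lower, at 91.9 to 115 CPM against 98.1 to 185 CPM (-0.39 ± 0.12, edgeR adjusted p = 0.259). Per2 and Cry1 did not overlap between the groups, as was so for 0.967% of all genes. The sources used here do not give the time of day at which retinas were taken, and its part in these values was not tested.

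Transcripts of tissues that border the retina held no called difference. The 22 lens genes had a median of 0.14 and none passed. Their summed level was 5470, 5316, 3005, 6606 and 5377 CPM in vehicle plus light, within the 354 to 8322 CPM of light damage, whose lowest value was that of light damage 1. Without light the summed level was 4902 to 37022 CPM in vehicle and 689 to 9208 CPM in control, ranges that overlapped, and the median of the list was 2.39 in vehicle against control, where no lens gene passed. Genes of the pigment epithelium (14 tested, median 0.04), ciliary body, iris and cornea (18 tested, median -0.07) and blood (6 tested, median -0.23) held no call. Actg2, a smooth muscle actin that is on the second of these lists, measured 2.06 to 4.18 CPM against 4.25 to 10.2 CPM (-1.21 ± 0.41, edgeR adjusted p = 0.356).

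The remaining lists held no call either. Extracellular matrix and wound repair (31 tested) had a median of -0.17, with 27 of 31 negative and the plasminogen activator Plat at -0.40 ± 0.15 (edgeR adjusted p = 0.412). NF-kB targets (18 tested) had a median of -0.16, with Icam1, an adhesion molecule for leukocytes, at -0.36 ± 0.16 (edgeR adjusted p = 0.565). Cholesterol synthesis (21 tested) stood at -0.11, glycolysis (21 tested) at -0.07, axon injury (19 tested) at -0.04 and mitochondrially encoded genes (12 tested) at 0.05.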

How the data were processed

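Retinal polyA RNA of rats was sequenced in 6 groups of biological replicates, per the labels. The authors deposited 1 table of raw read counts per gene: values are whole, and totals differ. The submitters' processing notes name Trimmomatic 0.39, STAR 2.7.9a, featureCounts of Subread 2.0.1, DESeq2 1.30.1 and R 4.0, with genome build rn6. The sources used here do not give the strand setting, annotation release or handling of multiply mapping reads, so genes that overlap or have near-identical copies are uncertain; a number ends the names of 4504 genes that share a name. Of 42 labelled samples, 31 have counts, and 11 were not analysed here.

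Of 32623 genes, filterByExpr (minimum count 10, minimum total 15) kept 18094. All 31 libraries entered 1 robust quasi-likelihood fit of edgeR 4.0.16 in R 4.3.3 with TMM scaling, 1 coefficient per group and no covariate. Benjamini-Hochberg adjustment ran over 18094 genes, with an adjusted p under 0.05 as a call. CPM is the count scaled to the TMM-adjusted library size, and log2 CPM in figures has a prior count of 2. SE is the log2 fold change divided by the square root of F. The main comparison alone was also run on simulated counts, drawn independently for each library. These lack the near-identical pairs and the uneven Y-linked transcripts of the data, so the run checks only the working of the fit.

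The rule named the 12 highest and 12 lowest called genes that have a proper symbol and reach a mean log2 CPM of 1, the 2 members of each list with the smallest p, and 16 fixed genes, of which some are not reported here. The comparison, the 34 gene lists (688 genes, 30 without a match) and the rule were chosen with earlier results of these data known. Gene order came from RefSeq (GRCr8), where 18 of the 22 called genes matched; no coordinates are given because the builds differ. The sample numbers in the library names run replicate by replicate across the groups, and the sources used here do not say what they stand for. Deviations of same-numbered libraries correlated at -0.07 to 0.16, which cannot exclude that they share a preparation or run. The groups were not paired in the main fit, and a fit with a replicate block is given below.

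Tried instead were DESeq2 1.42.0 size factors, library size alone, no filter, a fit of the 2 groups, the DESeq2 Wald test, limma-voom (limma 3.58.1) with quality weights, the replicate block, a term for Y-linked transcripts, summing near-identical libraries and leaving out each library. Added after seeing the data were light damage 1 left out with light damage 4 and 7 summed, limma-voom with near-identical pairs summed, and leaving out each control and vehicle library.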

Additional observations from a re-analysis of the deposited data

Results flagged for a closer look

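Of 138 groups of values examined, 13 had 1 library far from the others of its group, where chance flags about 1 in 20. In vehicle plus light, replicate 1 was lowest for RT1-CE10 (26.3 CPM against 54.9 to 67.3 in the other 4), RT1-A2 (74.9 CPM against 114 to 133) and Opn1mw (3.30 CPM against 11.1 to 14.7), and highest for Spice1 (14.6 CPM against 11.4 to 11.9). Replicate 6 was lowest for Kcnj8 (2.60 CPM against 3.24 to 3.48).

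In light damage, replicate 1 had the lowest total (25158407 counts against 106556304 to 149429413), was lowest for RT1-CE16_2 (1.66 CPM against 4.29 to 6.83) and Cryga (1.03 CPM against 3.22 to 6.55), and highest for Nts (1.81 CPM against 0.875 to 1.10). Replicate 2 was lowest for Lyz2 (99.4 CPM against 212 to 350) and highest for Hsp90aa1 (2.03 CPM against at most 0.00754). Replicate 5 was highest for Cxcl13 (10.7 CPM against 4.10 to 5.67) and lowest for Etv4 (8.27 CPM against 10.3 to 11.5).

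The effect of vehicle differed between light and no light, by the interaction test of edgeR, for Spice1 (0.60, log2), LOC100359600 (1.15), Etv4 (1.14), Cntnap5b (-2.64), Ccl3 (-2.35) and Cxcl11 (-2.48), with adjusted p from 0.00223 to 0.0438.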

How the results depend on the processing

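The count of 22 called genes was 15 to 22 under every other scaling, filter, term or summing tried in edgeR, but 89 with the DESeq2 Wald test, 229 with limma-voom, and 42 with limma-voom on summed pairs; it was 17 to 32 with 1 library left out. With the replicate block, 18 genes were called, 17 of them among the 22, and no library correlated best with its own number. Vehicle against control (4 called) gave 52 with the Wald test, 2211 with limma-voom, 11 on summed pairs, 1 with a term for Y-linked transcripts, and 1 to 24 with 1 library left out. The interaction (8 called) gave 40, 118 and 14 with the same 3 tools, 5 with the replicate block, 5 with pairs summed, 4 without light damage 1 and with 4 and 7 summed, and 5 to 21 with 1 library left out. Vehicle plus light against vehicle (3046 called) gave 5219 with limma-voom. The cause was not tested. Library size alone moved the median of all genes by under 0.1 in the main comparison (0.04) and to 0.12 in vehicle plus light against vehicle, where 2434 of 3122 calls were then higher, against 1749 of 3046; for light damage against control it gave 2371 higher and 1100 lower, against 2147 and 1927.

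Called genes kept their direction in all fits. Without 1 control or vehicle library, Fkbpl passed in 4 of 10 fits, Oprk1 in 2 and the others of the 22 in all 10. Signs turned for 5 uncalled genes: Stat3 gave 0.0088 with library size, Socs3 -0.12 and, on summed pairs, -0.047 with limma-voom and -0.031 with the Y-linked term, Fos -0.045 and, on summed pairs, -0.017 with limma-voom, C3 -0.046 without light damage 1 and with 4 and 7 summed, and Cntf only with 1 library left out. With 1 library left out, Stat3 ran from -0.064 to 0.0050, Socs3 from -0.10 to 0.21, C3 from -0.16 to 0.72 and Cntf from -0.0091 to 0.19. P2ry12, Ccl3, Kcnj8, Cxcl13, RT1-A2 and Cntnap5b passed with both the Wald test and limma-voom, Per2, Cry1, Plat and Asns with limma-voom (adjusted p 0.0439 to 0.0476), Kcnj8 and Cntnap5b in the fit of the 2 groups, and RT1-CE10 with the Wald test, the block and without vehicle plus light 1. Light damage 1, with 25158407 counts, gives the least precise values for scarce genes.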
